A study of Saccharomyces cerevisiae with 4 samples.

Results

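The 10 genes studied here encode the enzymes, and an activator, that act where yeast pyruvate is shared out, and were followed in cells whose Snf1 kinase was or was not open to a chemical inhibitor. They were chosen by gene name and comprise the pyruvate decarboxylase genes PDC1, PDC5 and PDC6 with their activator gene PDC2, the pyruvate dehydrogenase genes PDA1, PDB1, LAT1 and PDX1, and the pyruvate carboxylase genes PYC1 and PYC2. All 10 were found, each on 1 probe set, among 5656 genes that the platform annotation names. Gene expression was measured in Saccharomyces cerevisiae with the Affymetrix Yeast Genome S98 array, on 2 arrays for strains expressing Snf1-I132G and on 2 for strains expressing wild-type Snf1. Both strains were grown in synthetic medium without uracil and with 2% glucose, moved to 2% raffinose with 0.05% glucose for 120 min, and then given 25 µM 2NM-PP1 for 40 min. Snf1 is the AMP-activated protein kinase of yeast, and 2NM-PP1 is a pyrazolopyrimidine designed to block the I132G form and to spare the wild type. Every array came from cells that received the compound, so the I132G change itself and inhibition of the kinase cannot be told apart.

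RNA of 3 transformants was combined for each strain and run in duplicate, per the series' design text. Since no label ties the duplicates to separate cultures, p-values here cover only array-to-array spread, possibly a purely technical one. The sources used here do not give the genotype of the host strain. SNF1 had signals of 797 and 889 in Snf1-I132G and of 981 and 1015 in Snf1, which is no check of the labels because the I132G change alters the protein. Across the tested probe sets the log2 signals correlated at 0.976 between the Snf1-I132G arrays, at 0.981 between the Snf1 arrays and at 0.900 to 0.920 between groups. In the sample descriptions, same-numbered arrays of both groups carry a common string that differs between the numbers and may mark runs, so differences are also given within each replicate number.

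Pyruvate stands at the end of glycolysis, where fermentation, respiration and biosynthesis part. Pyruvate decarboxylase, a thiamine diphosphate enzyme of the cytosol, makes the acetaldehyde that is reduced to ethanol. The pyruvate dehydrogenase complex of the mitochondrion makes acetyl-CoA for the TCA cycle, and pyruvate carboxylase, a biotin enzyme of the cytosol, makes oxaloacetate for aspartate synthesis and for gluconeogenesis. Yeast growing on plentiful glucose sends most pyruvate through the decarboxylase, and Snf1 is needed for the switch to respiratory metabolism when glucose runs short.

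PYC2 was higher in Snf1-I132G by 1.84-fold and PDC5 was lower by 1.77-fold, and these 2 of the 10 genes passed an adjusted p of 0.05. The other 8 did not pass, among them PYC1 at a log2 difference of -0.68 and PDC1 at 0.58. With the replicate number as a block PYC1, PDC1 and LAT1 passed as well, and PYC1 also passed without replicate 2 of Snf1-I132G. Calls are from limma's moderated test on log2(signal + 16), adjusted by Benjamini-Hochberg over all 6956 tested probe sets. Among those, 27.8% were called, 10.3% as higher and 17.5% as lower, so the number of calls among the 10 genes does not stand out. The median log2 difference was -0.30 for the 10 genes, -0.16 for the 5199 tested named genes and -0.10 for all tested probe sets. Of the 5199 named genes 473 were called higher and 1042 lower. With the block 2 of the 10 were called higher and 3 lower, against 19.5% and 28.6% of all tested probe sets, or 48.0% in either direction. The groups did not overlap for 7 of the 10, against 67.1% of all tested probe sets.

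**Figure D1:**
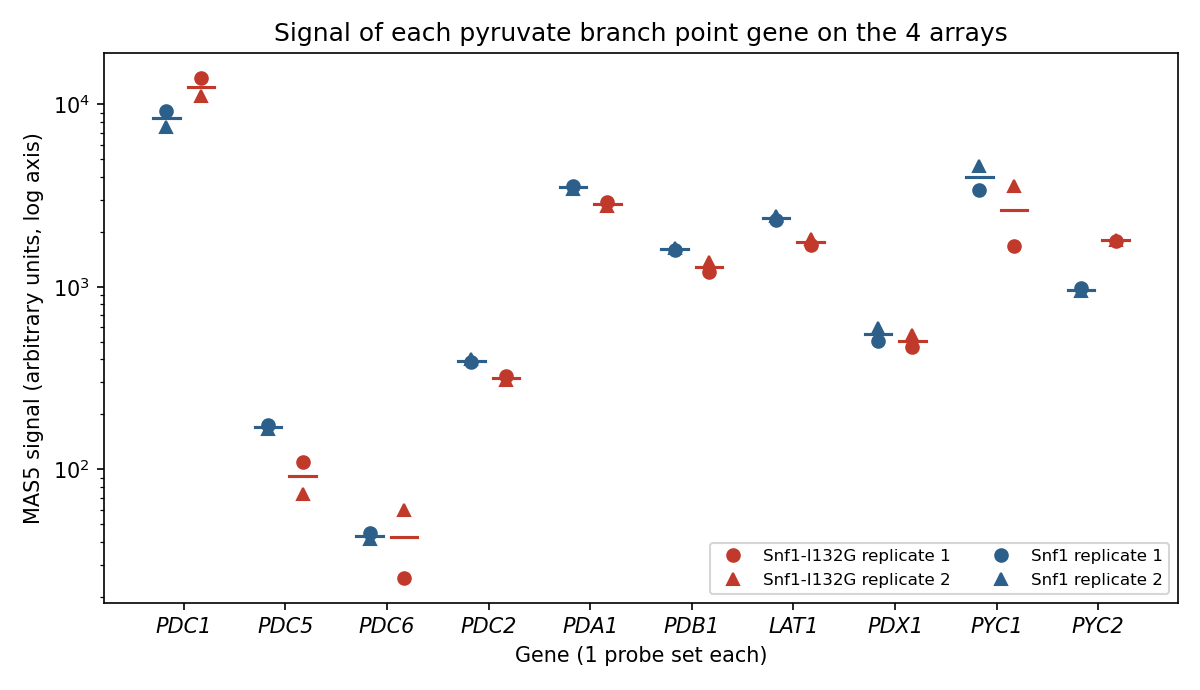
MAS5 signal (arbitrary units, log axis) of each of the 10 genes on the 4 arrays, with circles for replicate 1, triangles for replicate 2 and a bar at each group mean (Snf1-I132G red, Snf1 blue). PYC2 and PDC1 are higher on both Snf1-I132G arrays, PDC5 is lower on both, and signals of different genes cannot be compared because each probe set responds differently.

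The smallest p among the 10 genes was that of a pyruvate carboxylase gene. PYC2, which encodes a cytosolic pyruvate carboxylase, had signals of 1793 and 1796 in Snf1-I132G and 987 and 946 in Snf1. The groups were far apart and the arrays of each group lay close together. The log2 difference was 0.88 ± 0.14 (SE, n = 2 per group; limma, adjusted p = 0.0105), with 0.85 in replicate 1 and 0.91 in replicate 2. Without replicate 1 of Snf1 it was 0.91, and without replicate 2 of Snf1 it was 0.85. The call was lost in both, where far fewer of all tested probe sets were called as well.

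PYC1, which encodes the other pyruvate carboxylase, had signals of 1676 and 3585 in Snf1-I132G and 3373 and 4605 in Snf1. The groups overlapped, because replicate 2 of Snf1-I132G lay above replicate 1 of Snf1. In each group the replicate 1 array was the lower. The log2 difference was -0.68 ± 0.38 (limma, adjusted p = 0.233), with -1.00 in replicate 1 and -0.36 in replicate 2. With the replicate number as a block the same difference passed (adjusted p = 0.0079), in a fit that has 1 residual degree of freedom. The value moved from -0.14 (adjusted p = 0.710) without replicate 1 of Snf1-I132G to -1.23 (adjusted p = 0.0301) without replicate 2 of Snf1-I132G, so its size rests on which of these arrays is kept.

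PYC1 relative to PYC2 was 2.95-fold lower in Snf1-I132G, a relative log2 difference of -1.56 ± 0.60 (SE, n = 2 per group). It was -1.85 in replicate 1 and -1.27 in replicate 2, and the groups did not overlap. The exact two-sided permutation test gave p = 0.333, the smallest value that 2 arrays against 2 allow, and p = 0.61 after adjustment over the 11 pairs of genes compared this way. No comparison of this kind can pass a threshold here. A ratio within an array shows that the probe sets changed unequally, and does not show which transcript held still.

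**Figure D2:**
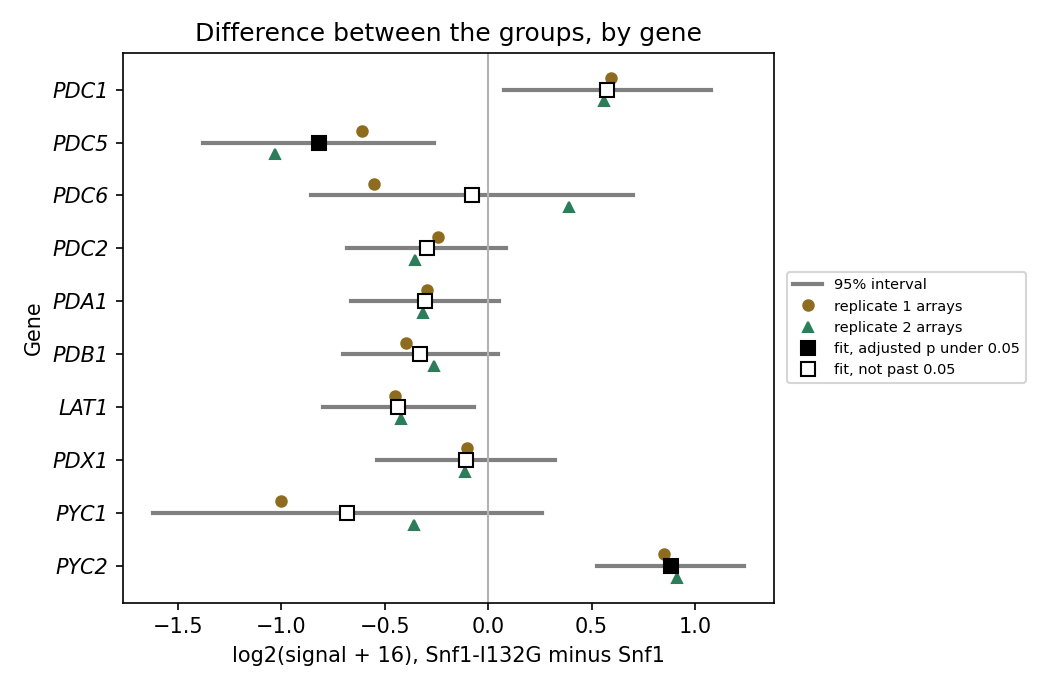
Difference in log2(signal + 16), Snf1-I132G minus Snf1, for each gene, with the fitted value (square, filled where the adjusted p was under 0.05), its 95% interval from limma (grey line), and the differences within replicate 1 (circle) and replicate 2 (triangle). PYC2 and PDC5 are filled, PDC1 and PYC2 lie to the right, and PDC6 is the gene whose replicates lie on opposite sides of 0.

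Of the decarboxylase genes PDC5 was called and PDC1 and PDC6 were not. PDC1, the main pyruvate decarboxylase gene of fermenting yeast, had signals of 13948 and 11062 in Snf1-I132G and 9246 and 7496 in Snf1. Both Snf1-I132G arrays lay above both Snf1 arrays, and replicate 1 was the higher in each group. PDC1 had a log2 difference of 0.58 ± 0.20 (limma, adjusted p = 0.0869), which is 1.49-fold, with 0.59 and 0.56 within replicates 1 and 2. With the replicate block it passed (adjusted p = 0.0043). This value depends on how the arrays are scaled, since it was 0.24 (adjusted p = 0.129) after quantile normalization and 0.34 (adjusted p = 0.290) after centring on hybridization controls. Median centring raised it to 0.76 (adjusted p = 0.0768).

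PDC5, the minor decarboxylase gene known to be induced when PDC1 is lost or thiamine is scarce, had signals of 110 and 73.3 in Snf1-I132G and 176 and 166 in Snf1. Both Snf1-I132G arrays lay below both Snf1 arrays. The log2 difference was -0.82 ± 0.22 (limma, adjusted p = 0.0450), with -0.61 in replicate 1 and -1.03 in replicate 2. The call lies close to the threshold. It was lost after quantile normalization (-0.64, adjusted p = 0.102), after median centring (-0.63, adjusted p = 0.104) and without a brightness filter (-0.82, adjusted p = 0.0657). It was also lost without replicate 2 of Snf1-I132G (-0.57, adjusted p = 0.116), without replicate 1 of Snf1 (-0.78, adjusted p = 0.174) and without replicate 2 of Snf1 (-0.86, adjusted p = 0.154).

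PDC1 relative to PDC5 was 2.63-fold higher in Snf1-I132G, a relative log2 difference of 1.40 ± 0.14 (exact permutation p = 0.333, the smallest allowed), with 1.20 in replicate 1 and 1.59 in replicate 2. The coding sequences of these genes are closely similar, and hybridization of PDC1 transcripts to the PDC5 probe set was not tested. PDC6, for an isozyme that is little expressed in most media, had signals of 25.5 and 59.4 in Snf1-I132G and 44.7 and 41.6 in Snf1. Its Snf1-I132G arrays lay on either side of the Snf1 arrays, at percentiles of 21.8 and 34.5 within their arrays against 28.8 and 27.4. The log2 difference was -0.08 ± 0.31 with a 95% interval of -0.86 to 0.70, which leaves room for a change in either direction at this low signal.

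PDC2 encodes the activator needed for PDC1 and PDC5 expression and for thiamine synthesis genes. Its signals were 326 and 310 in Snf1-I132G and 388 and 401 in Snf1. The groups were apart, by a small margin. The log2 difference was -0.30 ± 0.15, short of the threshold (limma, adjusted p = 0.207), and it did not pass with the block (adjusted p = 0.111), but did with centring on hybridization controls (-0.53, adjusted p = 0.0464), a scaling that moved the median of all tested probe sets to -0.33.

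Genes of the pyruvate dehydrogenase core were slightly lower in signal, and none passed. PDA1, for the E1 alpha subunit, had signals of 2906 and 2771 in Snf1-I132G and 3572 and 3453 in Snf1. PDB1, for the E1 beta subunit, had 1209 and 1364 against 1596 and 1639. LAT1, for the E2 dihydrolipoamide acetyltransferase, had 1699 and 1832 against 2325 and 2456. Each of these 3 genes was lower on both Snf1-I132G arrays, by a narrow and similar margin. Fitted log2 differences were -0.31 ± 0.14 for PDA1, -0.33 ± 0.15 for PDB1 and -0.43 ± 0.15 for LAT1 (limma, adjusted p = 0.172, 0.162 and 0.0799). LAT1 passed with the replicate block (adjusted p = 0.0155) and with centring on hybridization controls (-0.67, adjusted p = 0.0258), where PDB1 passed as well (-0.56, adjusted p = 0.0457). Under median centring the differences of PDA1, PDB1 and LAT1 shrank to -0.12, -0.14 and -0.25. After quantile normalization they were -0.43, -0.27 and -0.44, and none passed.

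PDX1, for the E3-binding protein that tethers dihydrolipoamide dehydrogenase to the core, had signals of 470 and 545 in Snf1-I132G and 505 and 591 in Snf1. The groups overlapped, and replicate 2 was the higher in each. PDX1 had a log2 difference of -0.11 ± 0.17 with a 95% interval of -0.54 to 0.32. PDA1 relative to PDB1 changed by 0.02 ± 0.13 on the log2 scale and PDA1 relative to LAT1 by 0.13 ± 0.11, with overlapping groups in both (exact permutation p = 1 and 0.667). PDA1 relative to PDC1 was 1.84-fold lower in Snf1-I132G, with neither gene called on its own (relative log2 difference -0.88 ± 0.18, exact permutation p = 0.333), with -0.89 in replicate 1 and -0.88 in replicate 2. The other pairs among the 10 genes were PDC1 to PDC6 at 0.66 ± 0.61, PDC5 to PDC6 at -0.74 ± 0.68, PDA1 to PDX1 at -0.20 ± 0.19 and PYC1 to PDA1 at -0.37 ± 0.63, of which PDC5 to PDC6 alone did not overlap between groups.

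Partner genes of the dehydrogenase were called in both directions. The list holds the shared E3 gene LPD1, kinases and phosphatases of the complex, lipoylation genes and the mitochondrial pyruvate carrier, and of its 11 tested genes 2 rose, 4 fell and 5 did not pass (median log2 difference -0.49, against -0.10 for all tested probe sets, of which 10.3% were called higher and 17.5% lower). The split depended on the setting, with 3 rises and 6 falls under the block, 0 and 6 with centring on hybridization controls, and 0 and 3 without replicate 2 of Snf1-I132G. Under the block 19.5% of all tested probe sets were called higher and 28.6% lower. Centring on hybridization controls called 491 of the 6956 higher and 2110 lower. LPD1, for the dihydrolipoamide dehydrogenase that the complex shares with 2-oxoglutarate dehydrogenase, had signals of 3336 and 3008 in Snf1-I132G and 6548 and 5155 in Snf1. It fell by 0.87 on the log2 scale (SE 0.18; limma, adjusted p = 0.0210). Among the regulators, PKP1, a kinase gene of the complex, was at -0.96 ± 0.17 (adjusted p = 0.0126), and PTC6, a phosphatase gene of the complex, was at -0.91 ± 0.15 (adjusted p = 0.0117). PKP2, the other kinase gene, rose by 0.58 ± 0.15 (adjusted p = 0.0358), and its dimmer probe set gave 0.59 ± 0.19 (adjusted p = 0.0681). PTC5, the other phosphatase gene, was at -0.61 ± 0.18 (adjusted p = 0.0586, or 0.0100 with the block).

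The subunits of the pyruvate carrier, which brings pyruvate into the mitochondrion, moved apart. MPC3, for the subunit used in respiring cells, had signals of 913 and 1002 in Snf1-I132G and 6279 and 6143 in Snf1. It fell by 2.68 on the log2 scale (SE 0.15; limma, adjusted p = 0.0015) and was called under all 16 alternatives run. MPC2, for the subunit that replaces it in fermenting cells, had 4725 and 6602 against 3006 and 3089. It rose by 0.87 ± 0.20 (limma, adjusted p = 0.0291). MPC1, for the subunit common to both forms of the carrier, had 424 and 501 against 654 and 651, a log2 difference of -0.49 ± 0.16 (adjusted p = 0.0782, or 0.0178 with the block). MPC2 relative to MPC3 was 11.7-fold higher in Snf1-I132G, and PKP1 relative to PKP2 was 2.92-fold lower. Both ratios did not overlap between groups (exact permutation p = 0.333 each), and both were chosen after their values were seen. Without replicate 1 of Snf1 this list had 1 fall and no rise, and the same counts without replicate 2 of Snf1. MPC2 was not called after quantile normalization or with centring on hybridization controls, PKP2 was not called with centring on hybridization controls, and LPD1 was not called with median centring. Of the 16 alternatives MPC2 and PKP2 each kept their call in 11, and LPD1 in 12.

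**Figure D3:**
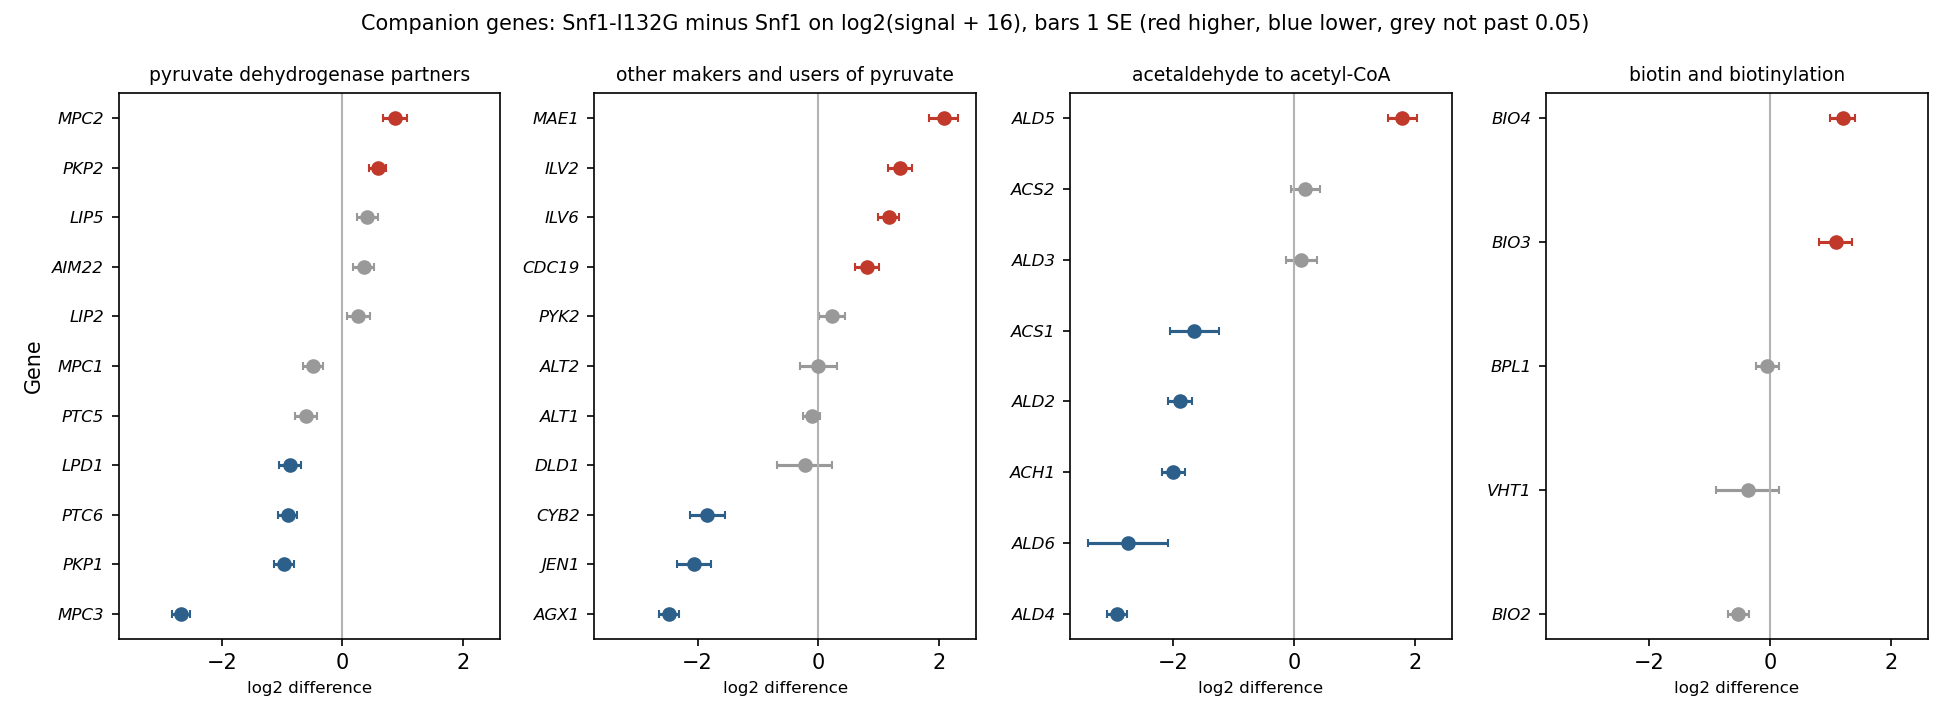
Log2 difference, Snf1-I132G minus Snf1, of tested genes in 4 companion lists, with bars of 1 SE from limma (red higher, blue lower, grey not past an adjusted p of 0.05). MPC2 and MPC3 lie at opposite ends of the first panel, and MAE1 and AGX1 at opposite ends of the second.

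Other enzymes that make or use pyruvate moved both ways. Among 11 there were 4 rises, 3 falls and 4 genes not past the threshold (median log2 difference 0.00). Of all tested probe sets 10.3% were called higher and 17.5% lower, with a median of -0.10. MAE1, for the mitochondrial malic enzyme that makes pyruvate from malate, had signals of 3774 and 5591 in Snf1-I132G and 944 and 1228 in Snf1. It rose by 2.08 ± 0.25 (limma, adjusted p = 0.0052). ILV2 and ILV6, for the catalytic and regulatory subunits of acetolactate synthase, which draws pyruvate into valine and isoleucine synthesis, rose by 1.35 ± 0.20 and 1.17 ± 0.18. CDC19, the major pyruvate kinase gene, rose by 0.81 ± 0.20 (adjusted p = 0.0333). CDC19 was not called with centring on hybridization controls (0.58), without a brightness filter, or without either Snf1 array or replicate 1 of Snf1-I132G.

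Falls in that list were those of AGX1, for alanine-glyoxylate aminotransferase, at -2.47 ± 0.17, of JEN1, the lactate and pyruvate permease gene, at -2.07 ± 0.28, and of CYB2, for the L-lactate dehydrogenase of the mitochondrial intermembrane space, which makes pyruvate, at -1.84 ± 0.28 (limma, adjusted p = 0.0018, 0.0070 and 0.0093). JEN1 had signals of 41.9 and 81.1 against 283 and 314, so its fold is understated by the pseudocount. DLD1, for a D-lactate dehydrogenase, had 1602 and 4025 against 2437 and 3626, and the groups overlapped.

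Downstream of the decarboxylase, genes of the route from acetaldehyde to acetyl-CoA were mostly lower. Among 8 there were 5 falls, 1 rise and 2 genes not past (median log2 difference -1.77). Of all tested probe sets 17.5% were called lower and 10.3% higher, with a median of -0.10. ALD6, the main cytosolic acetaldehyde dehydrogenase gene, had signals of 306 and 1421 in Snf1-I132G and 4151 and 5075 in Snf1. Its log2 difference was -2.76 ± 0.66 (limma, adjusted p = 0.0317). Its value was -3.84 without replicate 2 of Snf1-I132G and -1.68 without replicate 1 of Snf1-I132G, and a further ALD6 probe set was too dim to test. ALD4, a mitochondrial isozyme gene, and ALD2 were at -2.93 ± 0.17 and -1.89 ± 0.20. ACH1, for a CoA transferase, was at -2.00 ± 0.20. ACS1, for the acetyl-CoA synthetase of glucose-poor cells, was at -1.65 ± 0.41, and ACS2, the other synthetase gene, was at 0.19 ± 0.25 and did not pass. ALD5, another mitochondrial isozyme gene, rose by 1.79 ± 0.24 (adjusted p = 0.0065). Without replicate 1 of Snf1 the falls numbered 3, as they did without replicate 2 of Snf1, and ACS1 was not called after quantile normalization (-1.49) or median centring (-1.47).

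Genes of the enzymes' cofactors were set beside them. Biotin is attached to both carboxylases by the ligase Bpl1, and of 5 tested biotin genes 2 rose and 3 did not pass (median log2 difference -0.04), where 27.8% of all tested probe sets were called. BIO3 and BIO4, for the steps that lead to dethiobiotin, were at 1.09 ± 0.28 and 1.21 ± 0.20 (limma, adjusted p = 0.0364 and 0.0115). BIO2, for biotin synthase, was at -0.52 ± 0.18 (adjusted p = 0.0819, or 0.0284 with the block), and BPL1 was at -0.04 ± 0.18. VHT1, the biotin transporter gene, was at -0.37 ± 0.52, and its replicate 1 array was the lower in each group. Without replicate 1 of Snf1 the list had no call (0 of 5), with BIO4 at 1.09 and BIO3 at 0.86. BIO3 was also not called without replicate 2 of Snf1 (1.31), without replicate 2 of Snf1-I132G (0.79) or without a brightness filter.

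Thiamine diphosphate serves the decarboxylase and the E1 subunits of the dehydrogenase. Of 16 tested genes of thiamine synthesis, transport and regulation 1 rose, 1 fell and 14 did not pass (median log2 difference 0.13). Among all tested probe sets 10.3% were called higher and 17.5% lower. THI5, THI11, THI12, THI13, SNZ2, SNZ3, SNO2 and SNO3 lie on probe sets of several genes and are not in this count. Centring on hybridization controls gave 1 rise and 4 falls with a median of -0.10, and median centring gave 3 rises and 1 fall with a median of 0.32. The rise was that of SNO1 at 2.10 ± 0.43 (limma, adjusted p = 0.0194), a gene of vitamin B6 metabolism, and the fall that of THI74 at -0.87 ± 0.17 (adjusted p = 0.0158), a thiamine-repressed transporter gene. With the block 4 rose and 3 fell, where 19.5% of all tested probe sets were called higher and 28.6% lower. TPC1, the mitochondrial thiamine diphosphate carrier gene, was at -0.48 ± 0.18 (adjusted p = 0.102, or 0.0428 with the block), and THI73 was at 0.54 ± 0.21 (adjusted p = 0.107). The 4 rises under the block were SNO1, SNZ1 (0.85), THI7 (0.79) and THI21 (0.45), and the 3 falls THI74, TPC1 and THI22 (-0.45). THI4, for thiazole synthesis, was at -0.36 ± 0.19, and THI2, the activator gene that acts with PDC2, at 0.26 ± 0.17. SNO1 was not called without replicate 1 of Snf1-I132G (1.99, adjusted p = 0.0616) or without replicate 2 of Snf1-I132G (2.20, adjusted p = 0.0503), and THI74 was not called without either Snf1 array. THI3 and ARO10, which encode proteins related to pyruvate decarboxylase, were at -0.19 ± 0.15 and -0.28 ± 0.64. Neither passed, and ARO10 tracked the replicate number, at 34.0 and 153 in Snf1-I132G and 60.4 and 147 in Snf1.

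Regulator genes of glycolysis and of the decarboxylase, listed with RPN4, had a share of calls near that of all tested probe sets (27.8%). Of 6 tested 2 rose and 4 did not pass (median log2 difference 0.03), and with the block, as with centring on hybridization controls, 2 rose and 2 fell. Of all 6956 tested probe sets the block called 19.5% higher and 28.6% lower, and that centring called 491 higher and 2110 lower. GCR1, for an activator of glycolytic genes and PDC1, had signals of 796 and 812 in Snf1-I132G and 421 and 449 in Snf1, and rose by 0.86 ± 0.15 (limma, adjusted p = 0.0122) on a probe set of the _s_at type, which can be shared by several transcripts. TYE7, for another activator of glycolytic genes, had 509 and 552 against 297 and 276, and rose by 0.86 ± 0.16 (adjusted p = 0.0148). RAP1, for a DNA-binding partner of Gcr1, was at -0.46 ± 0.18 (adjusted p = 0.105, or 0.0459 with the block). RPN4, the proteasome activator gene, was at -0.64 ± 0.19 (adjusted p = 0.0545, or 0.0035 with the block). Without replicate 1 of Snf1, and likewise without replicate 2 of Snf1, 0 of these 6 genes were called.

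Genes with the pattern most like that of PYC2, by Euclidean distance over the 4 arrays after centring each gene's log2 signals on their mean, were RPL29, FOL2 and YHK8 among 5198 others, at distances of 0.02, 0.06 and 0.06 log2 units. Their log2 differences were 0.90, 0.92 and 0.84. RPL29 encodes a ribosomal protein of the large subunit, and FOL2 the entry enzyme of folate synthesis. Those most like PDC5 were MDM1, ESP1 and ERD2, at 0.04, 0.07 and 0.08 log2 units, with log2 differences of -0.83, -0.83 and -0.79. With 4 arrays in 2 groups, such a distance reflects little more than the size of the difference.

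The settings moved the 10 genes unequally. PYC2 lay between 0.65 and 1.07 under the 16 alternatives, PDC1 between 0.24 and 0.76 and PYC1 between -1.23 and -0.14. PDC5 lay between -1.07 and -0.57 under the 15 alternatives in which it was tested. PDC6 and PDX1 changed sign under some alternatives, while the other 8 genes kept their sign under all those run.

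**Figure D4:**
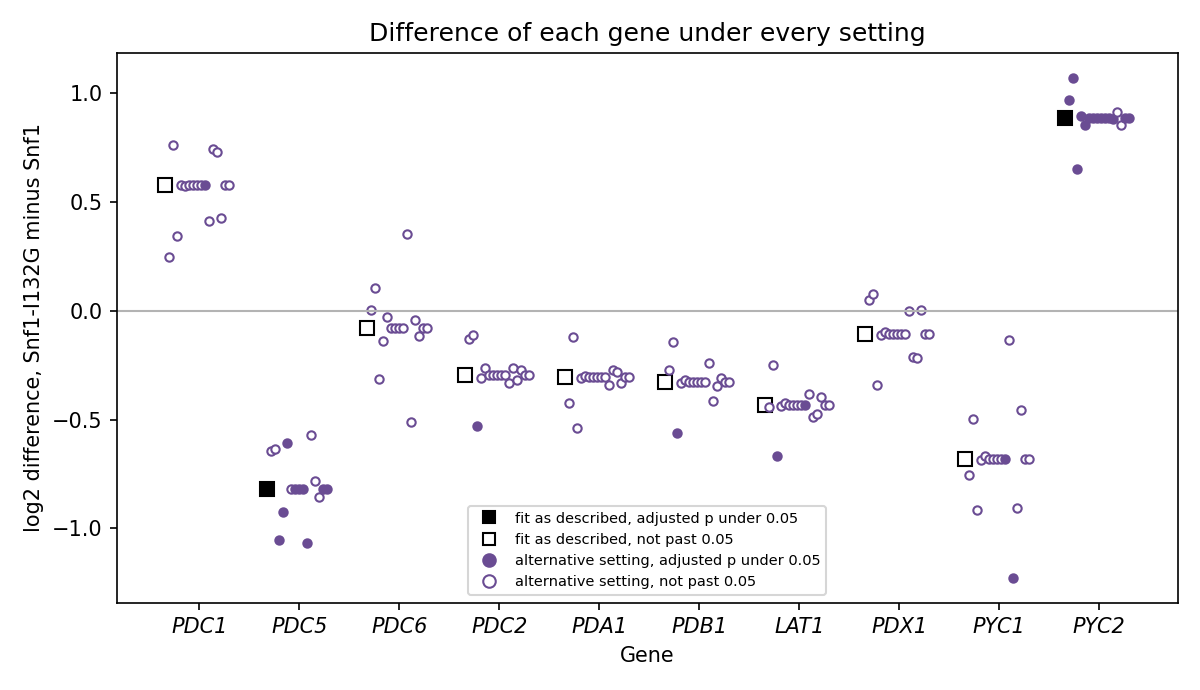
Log2 difference, Snf1-I132G minus Snf1, of each gene in the fit as described (black square) and under each alternative setting (purple circles), filled where the adjusted p was under 0.05. PYC2 stays between 0.65 and 1.07, PDC5 stays below 0 with many open circles, and PDC6 and PDX1 cross 0.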

How the data were processed

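The deposited values are intensities, linear signals that the authors computed with MAS5 (per the submitters' processing notes). Its version and the build behind the array design are not given in the sources used here. The trimmed mean was 500.4 to 500.5 on all 4 arrays, so the arrays had been scaled to each other, which spreads a change of many transcripts over the rest. Of 9275 non-control probe sets 6504 had 1 gene and were named through the platform annotation, and every symbol was found in RefSeq assembly R64. Probe sets whose mean signal reached the 25th percentile (35.0) were tested, 6956 in all, with limma 3.58.1 (lmFit, eBayes with trend) in R 4.3.3 on log2(signal + 16), without covariates, calling adjusted p (Benjamini-Hochberg) under 0.05. All 10 genes passed this filter. Folds on this scale understate the change of dim genes. The brightest probe set stood for its gene. The fit was tested on simulated data.

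Named were the 10 genes, of 7 companion lists the up to 4 genes with the smallest p and others, and the 3 genes most like PYC2 and PDC5 in pattern. Those others include the remaining called genes and also some genes that were not called. Members, lists and alternatives were chosen with earlier results of these data known. LIP3 was matched as AIM22, and 10 listed genes had no probe set of their own. Same-numbered arrays deviated together from the group means, with a correlation of 0.513 across probe sets. With the shared strings in the labels, this was read as possible pairing, a reading that is not certain. The main fit did not use it, and only the alternative with the replicate block did. A signal is an average over a culture, so fewer cells with a transcript and less of it per cell cannot be told apart. Promoter and protein sequences were not analysed here.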

Additional observations from a re-analysis of the deposited data

How the results depend on the processing

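Of the 10 genes, 1 was called higher and 1 lower on the scale and filter used. With the replicate block these counts were 2 and 3. No gene was called lower (0) after quantile normalization, after median centring, without a filter and with a filter at the 50th percentile, where PDC5 and PDC6 were not tested, and 4 were with centring on hybridization controls. Leaving out single arrays gave 0 to 1 called higher and 0 to 1 called lower. Over all tested probe sets 713 were called higher and 1219 lower. The block gave 1356 and 1986, median centring 811 lower, centring on hybridization controls 2110 lower, and plain _at probe sets 464 higher. Leaving out single arrays gave 318 to 657 higher and 442 to 1061 lower. Rises were a larger share after quantile normalization, which gave 831 higher and 918 lower, and after median centring, which gave 957 higher, than with centring on hybridization controls, which gave 491 higher. The median log2 difference of all tested probe sets was -0.10, and 0.02, 0.09 and -0.33 after these scalings. PDC6 changed sign after quantile normalization (0.0018) and median centring (0.11), and leaving out single arrays gave -0.51 to 0.35, the latter in the absence of replicate 1 of Snf1-I132G. PDX1 changed sign after quantile normalization (0.047) and median centring (0.078), and leaving out single arrays gave -0.22 to 0.0030, the latter in the absence of replicate 2 of Snf1. The cause of these changes was not tested. The block changed the calls of PDC1, LAT1 and PYC1 and of no other gene of the 10. A filter on mean log2 signal, chosen after seeing the data, changed none of the 10 calls. The number of arrays limits the precision of every value, and PDC6 is limited further by its low signal.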

Other observations

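PYC2 and PDB1 lie near each other on the same chromosome, with YBR219C and YBR220C between them in the RefSeq gene order. PYC2 was at 0.88 ± 0.14, YBR220C at -0.08 ± 0.17 and PDB1 at -0.33 ± 0.15 on the log2 scale, and YBR219C was not tested. PDC6 lies between PIL1, an eisosome gene, and CTT1, the cytosolic catalase gene, which fell by 1.66 (SE 0.14) and by 1.46 (SE 0.16; limma, adjusted p = 0.0027 and 0.0042), while PDC6 was at -0.08 ± 0.31. TRX1, a thioredoxin gene next to PDC1, was at -0.88 ± 0.19 (adjusted p = 0.0225), opposite in sign to PDC1. RNH201, a ribonuclease gene next to LAT1, was at -0.85 ± 0.21 (adjusted p = 0.0333). These 4 were the neighbours called among 17 tested, a share near the 27.8% of all tested probe sets, and were named after their values were seen.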
